A study of Mus musculus with 27 samples.

Results

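The Csf1 axis and a group of inflammatory cytokines were followed across 27 mouse arrays, chosen by gene symbol as ligands that tumor-forming cells can make and receptors that host cells carry. Of the 10 genes named, 9 were listed in the probe annotation with 1 probe set each, among 19937 genes in all: the ligands Csf1 and Il34, their shared receptor Csf1r, the growth factor Csf2, the IL-6 family cytokines Il6, Lif and Il11, and the IL-1 family cytokines Il1b and Il33. Il1rl1, the receptor of IL-33, was not analysed here. RNA was measured on Affymetrix arrays, 1 array per sample, as log2 levels.

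The cultured samples were 10 immortalized lines derived from neural stem cells and 2 normal cultures of the same cell type (NSCs), the precursors from which neurons and glia arise. Lines 3, 28, 31, 59, 95 and 116 were labelled p53 mutant, and lines 119, 120, 123 and 331 were labelled WT, as were the NSCs. Lines 1, 31, 59 and 123 gave 3 tumors each, 12 in all, which were set against 3 samples of normal subcutaneous tissue (SubQ). Tumors of lines 31 and 59 carried the label p53 mutant, and tumors of lines 1 and 123 and the SubQ samples the label WT. Every sample, cultures included, was labelled with the severe combined immunodeficient host strain CB17/ICR-Prkdcscid/IcrCrl, which lacks mature T and B cells but keeps its myeloid cells. Each line was 1 array in culture, line 1 had no array in culture among those used here, and neither ages nor the kind of p53 mutation was given. The labels call the samples biological replicates without naming the animals, so the p-values reflect the spread between samples that may be in part technical.

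CSF1 and IL-34 both bind the receptor tyrosine kinase CSF1R, on which macrophages and their precursors depend for survival and growth. IL-6, LIF and IL-11 signal through the shared subunit gp130 (gene Il6st) to STAT3. IL-1β is made mainly by activated myeloid cells and IL-33 is kept in the nucleus of stromal and epithelial cells as an alarm signal, and both use the adaptor MyD88 and activate NF-kB. CSF2 acts on granulocytes and macrophages through receptors of its own.

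The sequences before the starts of Csf1, Il6 and Lif are shown because Csf1 and Il6 were higher in the lines than in NSCs and Lif spanned several log2 units among the lines, as Il33 did. Each is the 250 bases before the RefSeq start in build GRCm38.p6, written 5′ to 3′ on the gene's strand, with matches to NF-kB, AP-1 and C/EBP motifs in capitals. Csf1 lies on the minus strand (chr3:107760470-107760719), Il6 on the plus strand (chr5:30012864-30013113) and Lif on the plus strand (chr11:4257318-4257567).
Csf1: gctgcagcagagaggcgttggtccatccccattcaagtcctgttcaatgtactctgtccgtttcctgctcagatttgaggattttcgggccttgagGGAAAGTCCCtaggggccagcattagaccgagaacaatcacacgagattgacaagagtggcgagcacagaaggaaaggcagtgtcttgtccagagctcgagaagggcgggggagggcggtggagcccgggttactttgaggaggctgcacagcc
Il6: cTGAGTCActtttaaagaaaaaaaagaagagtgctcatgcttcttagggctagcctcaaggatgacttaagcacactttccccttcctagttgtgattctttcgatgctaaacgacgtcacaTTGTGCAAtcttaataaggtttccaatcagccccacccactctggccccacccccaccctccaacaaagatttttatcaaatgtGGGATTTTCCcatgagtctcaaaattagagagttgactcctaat
Lif: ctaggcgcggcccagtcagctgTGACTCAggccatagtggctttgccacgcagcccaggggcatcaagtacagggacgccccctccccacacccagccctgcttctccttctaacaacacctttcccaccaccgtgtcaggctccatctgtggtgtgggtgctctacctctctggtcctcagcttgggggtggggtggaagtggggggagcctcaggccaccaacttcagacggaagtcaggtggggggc

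Csf1 held 1 match to the NF-kB consensus, read on the opposite strand, 154 to 145 bases before the start. Il6 held the NF-kB consensus 44 to 35 bases before its start, together with an AP-1 motif (TGANTCA) and a C/EBP motif (TTGCNNAA). Lif held an AP-1 motif. Of the 9 measured genes 7 had at least 1 promoter in the RefSeq table, with 9 starts in all, and 2 of these 7 (Csf1 and Il6) held the NF-kB consensus. Over 32851 starts of all genes and both strands, the NF-kB consensus was found in 3.9%, the AP-1 motif in 6.75% and the C/EBP motif in 9.56%. No member start held the CRE motif (TGACGTCA, 1.55% of all starts) or the STAT motif (TTCNNNGAA, 7.02%). AP-1 was also found before 1 of 2 Il11 starts, and C/EBP before Csf2 and 1 of 2 Il33 starts. The motifs searched were not seen to overlap in these 3 sequences. These matches are descriptions of letters in the window and not of binding.

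Cell and tissue arrays behaved as 2 separately normalized sets: array medians lay between 7.02 and 7.08 in the cell set, 5.47 and 5.57 in tumors and 5.75 and 5.78 in SubQ, and no pair of 1 cell and 1 tissue array shared an exactly equal value. Tests were therefore kept within a set. The SubQ arrays had a narrower spread over genes (SD 0.869 to 1.02, against 1.63 to 1.79 in tumors) and correlated less with each other (r = 0.656 to 0.72) than tumors did (0.936 to 0.985). Markers fitted the labels of the NSCs, whose 11 neural stem cell markers had a mean level of 9.69 to 9.76 against 6.60 to 7.62 in the lines, and adipocyte markers were higher in SubQ (7.04 to 7.46) than in tumors (5.12 to 6.84). Line 31 tumor replicate 3 was the 1 tumor of 12 that did not correlate best with its own line once the mean of all tumors was removed. The margin was small: its mean r was -0.04 with its own line and 0.01 with line 1. Line 31 tumor replicate 2 had a mean r of only 0.05 with its own line. The results that line 31 tumor replicate 3 moved are given with and without it.

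Csf1 was the member that set the lines furthest apart from NSCs. Its level was 10.96 in line 3, 9.87 in line 28, 10.47 in line 31, 10.60 in line 59, 10.01 in line 95 and 10.25 in line 116, all p53 mutant. In the WT lines it was 9.29 in line 119, 9.97 in line 120, 10.15 in line 123 and 9.36 in line 331. The NSC cultures had levels of 6.90 and 7.02, so every line lay above both. The difference was 3.14 ± 0.34 on the log2 scale (SE, 8.79-fold, 10 lines against 2 NSC cultures, limma adjusted p = 2.8e-05). It remained called with the mutant lines alone (3.40), with the WT lines alone (2.74) and with each sample left out in turn (3.04 to 3.23).

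In the comparison of lines with NSCs, 15.0% of all genes were called in either direction, 6.79% as higher and 8.22% as lower in the lines, and 3 of the 9 members were called, all as higher. Beside Csf1 these were Il6 and Csf1r. In 21.3% of all genes the lines and NSCs did not overlap.

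Il34, the second ligand of CSF1R, had a median of 7.72 in the 10 lines (7.49 to 8.60), and 7.68 and 7.51 in the NSCs, which lay inside the range of the lines. The difference of 0.23 ± 0.21 did not pass the test (limma adjusted p = 0.59, 95% interval -0.23 to 0.69). Line 95 was the highest, at 8.60. IL-34 also binds the receptor-type phosphatase PTP-zeta (gene Ptprz1) and the proteoglycan syndecan-1 (Sdc1). Ptprz1 had a mean of 12.41 in NSCs and 5.87 in the lines, the latter under the 25th percentile of genes, and fell by 6.54 on the log2 scale (SE 0.80, adjusted p = 7.4e-05). Sdc1 rose by 0.47 ± 0.12 (adjusted p = 0.015).

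Csf1r itself was near the low end in all cultures. It was 6.09 to 6.36 in the 10 lines and 5.8 and 6.07 in the NSCs, whose mean of 5.93 was under the 25th percentile of genes there. The lines did not overlap with the NSCs, and the difference was 0.30 ± 0.09 (adjusted p = 0.04). That call was lost without NSC replicate 1 (0.17, adjusted p = 0.51), without any of 7 of the lines (adjusted p = 0.05 to 0.06), and with the mutant or WT lines alone (adjusted p = 0.12 and 0.13). The mean of 24 macrophage markers was 5.96 to 6.14 in the lines and 5.99 to 6.14 in NSCs. None of the 24 was called as higher in the lines and 1, the scavenger receptor Cd163, was lower by 0.45. With arrays centred on their medians or quantile normalized, 1 of them was called as higher as well.

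**Figure D1:**
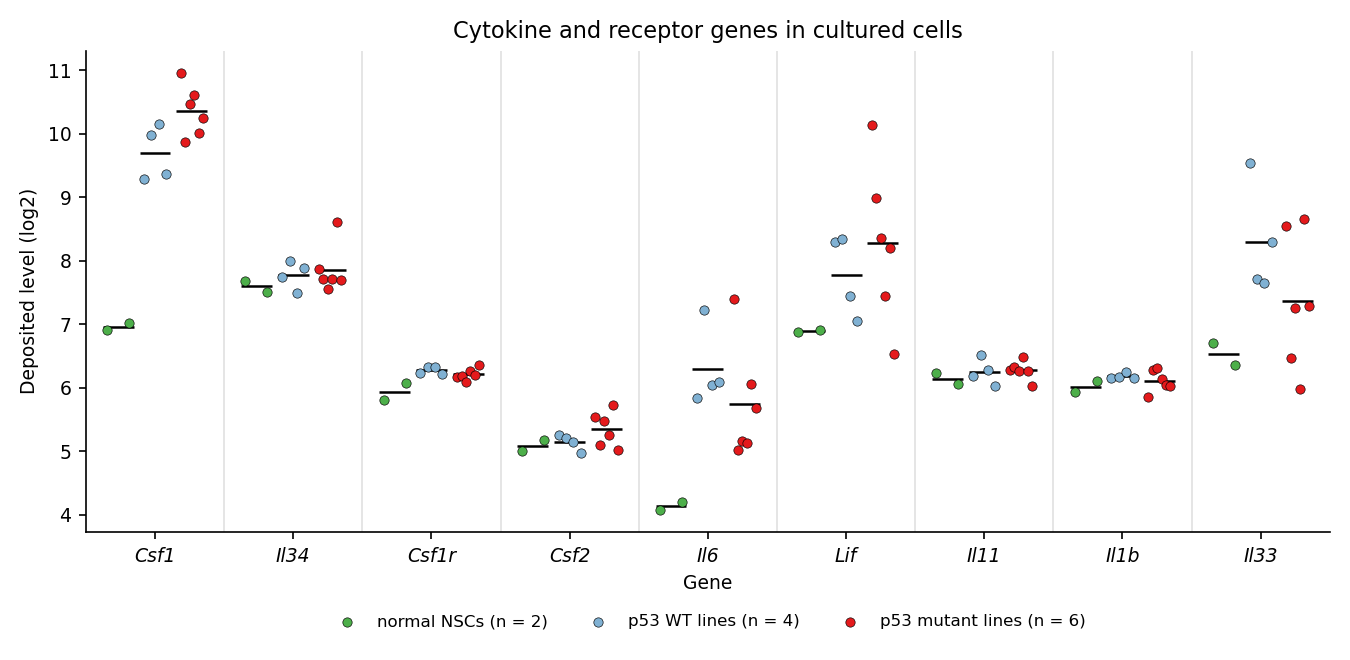
Deposited log2 levels (vertical axis) of the 9 measured genes in 2 NSC cultures, 4 p53 WT lines and 6 p53 mutant lines; each point is 1 array and each bar the group mean. Csf1 lies at 6.90 and 7.02 in NSCs and from 9.29 to 10.96 in the lines, while Csf1r, Il11 and Il1b stay within a narrow band. Levels of different genes are not comparable with each other.

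Il6, a cytokine of acute inflammation, was 4.07 and 4.19 in the NSCs. In the mutant lines it was 7.40 (line 3), 5.01 (line 28), 5.15 (line 31), 5.12 (line 59), 6.06 (line 95) and 5.67 (line 116), and in the WT lines 5.84 (line 119), 7.22 (line 120), 6.04 (line 123) and 6.09 (line 331). All lines lay above both NSCs, with lines 3 and 120 highest, although the means of the NSCs and of the lines were both under the 25th percentile of genes, so the size of the difference is uncertain. It was 1.83 ± 0.54 (3.56-fold, limma adjusted p = 0.035). The call was lost without NSC replicate 1 (adjusted p = 0.23) or 2 (0.20), with the mutant lines alone (1.61, adjusted p = 0.094) and with trend and robust settings (0.056).

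Lif, a factor that keeps stem cells undifferentiated, ranged over 3.60 log2 units among the lines. It was 10.13 in line 3, 8.98 in line 28, 8.36 in line 31, 7.44 in line 59, 8.20 in line 95, 6.53 in line 116, 8.29 in line 119, 8.34 in line 120, 7.44 in line 123 and 7.05 in line 331. NSCs were at 6.88 and 6.90, above line 116 and below the other lines. The difference of 1.18 ± 0.67 was not called (adjusted p = 0.30). Il11, a gp130 cytokine linked to fibrosis and platelet formation, was 6.02 to 6.52 in the lines and 6.05 and 6.23 in NSCs (0.12 ± 0.13, adjusted p = 0.63).

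The receptors of this family moved in both directions. Of 10 measured IL-6 family ligands and receptors beside the members, the lines showed 3 calls upward and 1 downward, with a median difference of 0.10 against -0.01 over all genes. Osmr, the oncostatin M receptor, rose by 4.08 ± 0.88 from 6.07 to 10.16, and Il6st rose by 1.75 ± 0.34 to 11.26. Clcf1, a cytokine that acts through the ciliary neurotrophic factor receptor, rose by 1.01, and that receptor, Cntfr, fell by 2.22 from 9.51 to 7.29. The LIF receptor Lifr was 7.56 in the lines and 8.86 in NSCs and was not called (adjusted p = 0.28). Of 14 genes known as outputs of this signalling, 6 rose and none fell (median 0.40), among them the protease inhibitor Timp1 (3.31), Il4ra (1.34) and the transcription factor Cebpd (1.03), with Osmr counted here too. Without either NSC culture 2 of the 14 outputs were called, and without NSC replicate 2 the calls of the 10 ligands and receptors were 1 upward and 1 downward.

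Il1b was flat in culture. It was 5.85 to 6.30 in the 10 lines and 5.93 and 6.10 in NSCs, under the 25th percentile of genes in both (0.12 ± 0.11, adjusted p = 0.58). Il33 was spread widely, at 8.55 in line 3, 6.46 in line 28, 7.26 in line 31, 5.98 in line 59, 8.66 in line 95, 7.28 in line 116, 9.53 in line 119, 7.71 in line 120, 7.65 in line 123 and 8.29 in line 331. The NSCs, at 6.70 and 6.36, lay above line 59 and around line 28, and the difference of 1.21 ± 0.70 was not called (adjusted p = 0.32). Csf2 was 4.97 to 5.72 in the lines and 5.0 and 5.17 in NSCs, under the 25th percentile of genes in both.

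Of 15 measured genes of the IL-1 family and its signalling beside the members, 1 was called: Il18rap, a subunit of the IL-18 receptor, rose by 2.62 ± 0.59, a call that was absent without either NSC culture. Of 21 NF-kB feedback genes and inflammatory targets, 8 were called higher and 1 lower (median 0.66). Without NSC replicate 1, and likewise without replicate 2, 4 were higher and 1 lower, so the count rests on both NSC cultures. Ptgs2, the inducible cyclooxygenase, was 11.97 in the lines and 5.84 in NSCs, a rise of 6.13 ± 0.37 (adjusted p = 8.8e-08). The adhesion molecule Vcam1 rose by 2.90, the monocyte attractant Ccl2 by 2.66 and the NF-kB inhibitor Tnfaip3 by 1.5. The call that went the other way was the superoxide dismutase Sod2, which fell by 0.55. Fibroblast markers had a mean of 6.95 to 8.35 in the lines and 6.63 to 6.71 in NSCs, with 2 of 10 called higher, and the part of this in these differences was not tested. Of 11 other genes of the CSF group, Ptprz1 and Sdc1 were the 2 called.

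p53 genotype did not separate the members by the test. Among all genes 0.0201% were called between mutant and WT lines, and 0 of 9 members by limma, while 1 member had an unadjusted p under 0.05. That member was Csf1, with a mean of 10.36 ± 0.40 (SD, n = 6) in mutant and 9.69 ± 0.43 (SD, n = 4) in WT lines. The difference was 0.67 ± 0.24, with a 95% interval of 0.15 to 1.19 and a limma adjusted p of 0.46, and the groups overlapped. Il33 pointed the other way, at 7.36 in mutant and 8.29 in WT lines (adjusted p = 0.71, interval -2.17 to 0.31).

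Between tumors and SubQ, 76.5% of all genes were called, 30.7% as higher and 45.8% as lower in tumors, and the groups did not overlap in 52.5% of genes. Against that background 5 of 9 members were called, 3 as higher and 2 as lower. The median gene was lower in tumors by 0.28 on the log2 scale. Tumors hold implanted line cells and host cells together, so fewer cells of a type and less RNA per cell cannot be told apart.

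Il1b showed the largest rise among the members. It was 9.15, 10.99 and 9.50 in line 1 tumors, 8.89, 8.97 and 10.73 in line 31 tumors, 10.31, 8.82 and 8.05 in line 59 tumors and 8.80, 7.87 and 8.18 in line 123 tumors. The SubQ samples were at 5.8, 6.10 and 5.67, below every tumor. The difference was 3.33 ± 0.53 (10.1-fold, limma adjusted p = 2.4e-05), and it was called under every alternative run for it.

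Csf1r was 7.41, 7.78 and 7.94 in line 1 tumors, 8.55, 9.18 and 7.67 in line 31 tumors, 9.39, 8.0 and 8.09 in line 59 tumors and 7.90, 7.96 and 8.36 in line 123 tumors. SubQ was at 6.02, 5.55 and 6.46, again below all tumors. The difference was 2.18 ± 0.33 (4.52-fold, adjusted p = 1.5e-05), and no alternative run for it ended the call. Macrophage markers rose with it: 21 of 24 were called higher and none lower (median 2.19 against -0.28 over all genes), and their mean was 7.52 to 8.89 in tumors and 6.02 to 6.22 in SubQ. The lysozyme gene Lyz2 rose by 5.26, the protease Ctss by 3.75 and the scavenger receptor Msr1 by 3.02. The part of cell composition in the Csf1r and Il1b differences was not tested.

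The ligand Csf1 rose less. Its levels were 6.98, 6.68 and 7.13 in line 1 tumors, 8.09, 8.50 and 7.42 in line 31 tumors, 8.27, 7.24 and 7.66 in line 59 tumors, and 7.35, 7.28 and 7.32 in line 123 tumors. SubQ had 6.45, 6.75 and 6.03, and 1 line 1 tumor lay below the highest of these. The difference was 1.08 ± 0.30 (2.12-fold, adjusted p = 0.0037). After quantile normalization it was 0.41 and not called (adjusted p = 0.29). Il34 was 5.99 to 6.93 in tumors and 6.91, 5.93 and 6.79 in SubQ, with a difference of -0.19 ± 0.22 that was not called (adjusted p = 0.43), although quantile normalization gave -0.83 (adjusted p = 0.02).

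**Figure D2:**
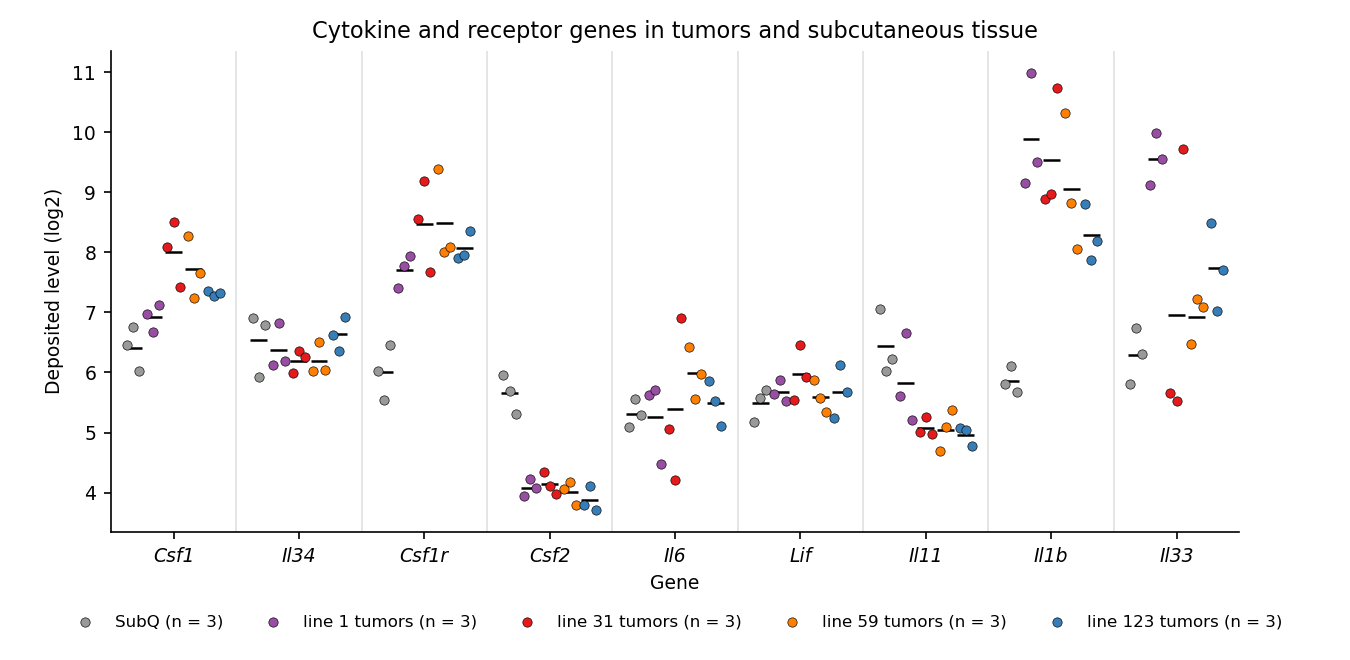
Deposited log2 levels (vertical axis) of the 9 measured genes in 3 SubQ samples and in 3 tumors of each of 4 lines; each point is 1 array and each bar the group mean. All 12 tumors lie above all SubQ samples for Csf1r and Il1b and below them for Csf2, and line 31 tumors span 5.52 to 9.72 for Il33.

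Csf2 fell. It was 3.71 to 4.35 in the 12 tumors and 5.96, 5.69 and 5.31 in SubQ, with no overlap (-1.62 ± 0.15, 3.08-fold lower, adjusted p = 6.2e-08). The tumor mean of 4.03 was under the 25th percentile of genes, so the size is uncertain. Il11 was 4.69 to 6.66 in tumors and 7.05, 6.03 and 6.22 in SubQ, and fell by 1.21 (SE 0.30, adjusted p = 0.0016). One line 1 tumor, at 6.66, overlapped with SubQ.

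Il6 and Lif were close in tumors and SubQ. Il6 ranged from 4.21 to 6.90 in tumors, both extremes in line 31 tumors, and was 5.10, 5.56 and 5.29 in SubQ (0.22 ± 0.40, adjusted p = 0.63, 95% interval -0.63 to 1.07). Lif ranged from 5.24 to 6.46 in tumors and was 5.18, 5.58 and 5.70 in SubQ (0.24 ± 0.21, adjusted p = 0.29), while quantile normalization gave 0.61 (adjusted p = 0.022). The Il33 difference of 1.51 ± 0.81 was not called (adjusted p = 0.10). It was called without line 31 tumor replicate 2 (1.71, adjusted p = 0.048) and when the 3 tumors of a line were averaged (adjusted p = 0.045).

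**Figure D3:**
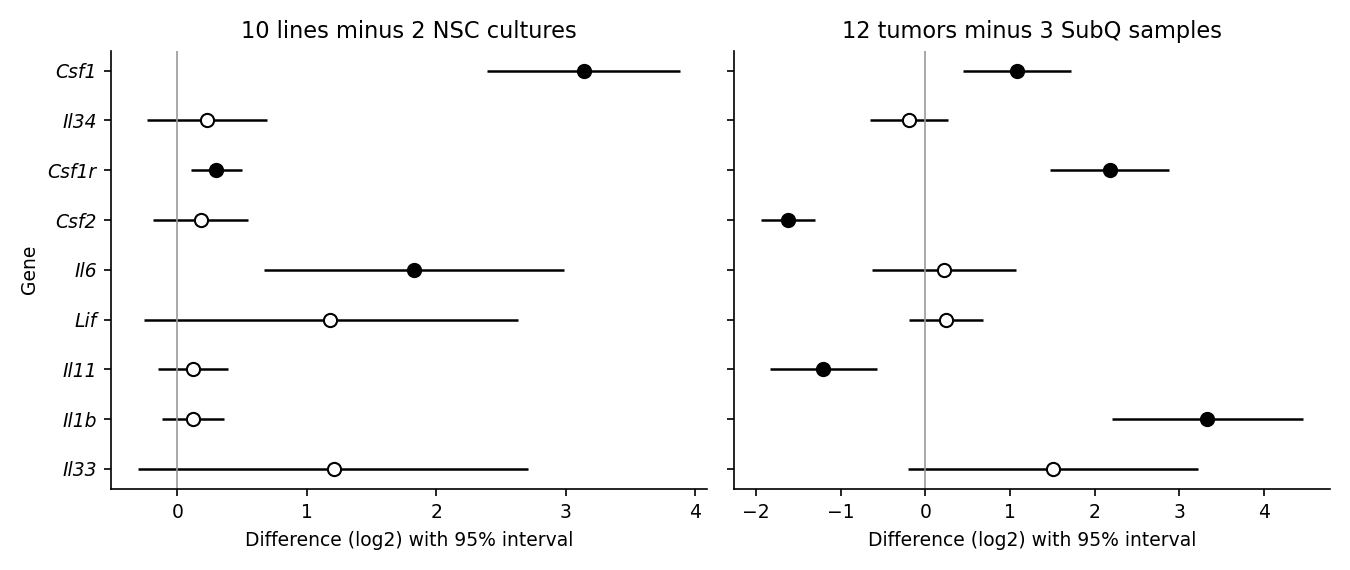
Log2 differences (horizontal axis) of the 9 measured genes between the 10 lines and 2 NSC cultures (left) and between the 12 tumors and 3 SubQ samples (right), with 95% intervals; filled points passed the limma test at an adjusted p under 0.05. Csf1 is the largest difference on the left (3.14) and Il1b on the right (3.33).

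Of 10 IL-6 family ligands and receptors beside the members, 3 rose and 4 fell in tumors, close to the shares of all genes given above. Osmr rose by 2.30 ± 0.49 to 9.02, Il6st by 2.05 ± 0.23 to 9.09 and Lifr by 0.94 ± 0.24 to 6.83, while the receptor Cntfr fell by 0.62 and the IL-6 receptor Il6ra, at 6.52 in tumors and 6.61 in SubQ, was not called (adjusted p = 0.69). The cardiotrophin gene Ctf1 fell by 0.67. Of 14 outputs 6 rose and 2 fell, with Timp1 higher by 3.64 and the feedback inhibitor Socs1 lower by 1.38. Quantile normalization gave 4 higher and 2 lower of these outputs, where 5195 of 19937 genes were higher. The calls of Stat3, Socs3 and Cebpb were lost there, and Stat3 had the opposite sign. Of 15 other IL-1 family genes 4 rose and 2 fell: Casp1, which cleaves the IL-1β precursor, rose by 1.30, the receptor subunit Il1rap by 1.05 and Myd88 by 0.99. The call of Casp1 was lost after quantile normalization, and 1 gene rose without SubQ replicate 2 and 2 without SubQ replicate 1. The receptor antagonist Il1rn was 6.49 in tumors and 6.65 in SubQ and was not called (adjusted p = 0.39).

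Of 21 NF-kB feedback genes and targets 9 rose and 1 fell in tumors (median 0.29), where 30.7% of all genes rose. Vcam1 rose by 3.31, Ccl2 by 2.74, Ptgs2 by 2.06 and the monocyte attractant Ccl7 by 1.97. Quantile normalization gave 6 higher and 2 lower in this list, where 5195 of 19937 genes were higher. The calls of Ptgs2, Nfkbia, Nfkbiz and Rela were lost there, and Rela had the opposite sign. Markers of fibroblasts (6 of 10 higher and 1 lower, median 0.78) and of endothelium (5 of 11 higher and 1 lower, median 0.59) moved in the same comparison, although quantile normalization left 2 fibroblast markers higher. The fibroblast mean was 7.61 to 8.75 in tumors and 6.98 to 7.49 in SubQ, and the endothelium mean 6.05 to 7.18 and 5.71 to 5.86. Their part in the rises of Vcam1, Timp1, Osmr and the other genes named here was not tested. Of 11 other CSF genes 2 rose and 4 fell, or 5 and 2 with arrays centred on their medians. None rose without any 1 of 6 tumors (line 1 replicate 2, line 31 replicate 2, the line 59 tumors or line 123 replicate 3), with line as a random block or with line means. The lymphocyte-derived cytokine Il3 fell by 1.39, and its call was lost after quantile normalization. Il5 fell by 1.06. The receptor subunits Il5ra and Csf2ra fell by 0.82 and 0.65, the first with the opposite sign after quantile normalization, and both calls were lost when arrays were centred on their medians. The means of Il3, Il5 and Il5ra over the 12 tumors were under the 25th percentile of genes there (4.75), so the sizes of their falls are uncertain. Markers of lymphocytes (9 of 11) and of mast cells and type 2 innate lymphoid cells (10 of 15) were lower in the same comparison, or 6 of each after quantile normalization. The lymphocyte mean was 4.27 to 4.83 in tumors and 5.25 to 5.76 in SubQ. The strain lacks mature T and B cells, so what these lymphocyte markers reflect is uncertain. Lower too were markers of adipocytes (6 of 7), keratinocytes (7 of 11) and skeletal muscle (7 of 9). For muscle the count was 3 without SubQ replicate 2 and 4 without SubQ replicate 3. Of 11 neutrophil markers 6 were lower and none higher, but 3 lower and 2 higher after quantile normalization. The part of any of these lists in the falls of Csf2 and Il11 was not tested.

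Across the 4 tumor lines Csf1 was ordered from line 31 (8.0 ± 0.54, SD, n = 3) through line 59 (7.72 ± 0.52) and line 123 (7.32 ± 0.04) to line 1 (6.93 ± 0.23). Lines 31 and 59 did not differ beyond their spread. Csf1r was 8.50 ± 0.78 in line 59, 8.47 ± 0.76 in line 31, 8.08 ± 0.25 in line 123 and 7.71 ± 0.28 in line 1, with neighbouring lines within their spread. Il1b was ordered from line 1 (9.88 ± 0.98) through line 31 (9.53 ± 1.04) and line 59 (9.06 ± 1.15) to line 123 (8.28 ± 0.48), also within the spread of neighbours. By limma's F test over the 4 lines 5.07% of genes and 0 of 9 members were called, with 3 members at an unadjusted p under 0.05.

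Il33 was the member that differed most between tumors. It was 9.12, 9.98 and 9.55 in line 1 tumors, 8.49, 7.02 and 7.70 in line 123 tumors, 6.47, 7.22 and 7.09 in line 59 tumors, and 5.65, 5.52 and 9.72 in line 31 tumors. The last value belongs to line 31 tumor replicate 3, which lay among the line 1 tumors and far above the others of its line. The F test gave an adjusted p of 0.19 for Il33 and 0.11 for Csf1, and without that tumor 0.00036 and 0.023.

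With line 1 set against the other lines together, Il33 differed by 2.34 (adjusted p = 0.085) and Csf1 by -0.75 (0.092), and neither was called. Leaving out line 31 tumor replicate 3 gave 2.80 (adjusted p = 0.00013) for Il33 and -0.85 (0.019) for Csf1. In line 31 against the others, where 1.39% of all genes were called, the same step changed Csf1 from 0.68 (adjusted p = 0.18) to 0.97 (0.037) and Il33 from -1.11 (0.52) to -2.49 (0.0024). For Il11 the difference of line 1 was 0.79 and not called (adjusted p = 0.096). It was 0.78 without line 31 tumor replicate 3 and 0.38 without line 1 tumor replicate 2.

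Other genes set line 1 tumors apart, where 4.62% of all genes were called, 2.33% as higher and 2.29% as lower. Of 24 macrophage markers 7 were lower and none higher, among them Ly86 (by 1.81), Cx3cr1 (by 1.61) and the complement gene C1qc (by 1.42). Of 11 neutrophil markers 5 were higher and none lower, among them the calgranulin S100a9 (3.10), the chemokine receptor Cxcr2 (2.99) and S100a8 (2.38). Without line 31 tumor replicate 3 these counts were 8 and 6. Without line 1 tumor replicate 2 they were 2 and 2, and without line 1 tumor replicate 3 the macrophage count was 4. The CXCR2 ligands Cxcl2 and Cxcl1 were higher by 2.48 and 1.38, and Osmr by 1.03. The calls of Cxcl2 and Osmr were lost without line 1 tumor replicate 2, and that of Osmr also without line 1 tumor replicate 3. The mean of the 11 neutrophil markers was 5.83 to 5.97 in line 1 tumors, 5.86 in line 31 tumor replicate 3 and 4.33 to 4.73 in the other 8 tumors. Some stromal markers also set line 1 tumors apart. The mean of 10 fibroblast markers was 8.53 to 8.75 in line 1 tumors and 7.61 to 8.22 in the others, where line 31 tumor replicate 3 was the highest. The mean of 11 endothelium markers was 7.03 to 7.18 against 6.05 to 6.59, with the same tumor highest among the others. By the test 2 fibroblast markers, the growth factor receptor Pdgfra (2.38) and the protease Fap (1.23), and 2 endothelium markers, the angiopoietin receptor Tek (3.78) and Pecam1 (0.68), were higher. Without line 31 tumor replicate 3 these counts were 4 and 5, and without line 1 tumor replicate 1 or 3 they were 1 and 1. Other fibroblast markers were close to the other lines, among them Col1a1 (0.05), Col1a2 (-0.1), Thy1 (0.06) and Pi16 (0.03), as was the endothelium marker Vwf (0.03). Cultured lines without host tissue also had a fibroblast mean of 6.95 to 8.35, on the separate scale of the cell arrays. Of 10 dendritic cell markers 4 were lower, namely Cd74 (by 2.33), H2-Aa (by 1.79), H2-Ab1 (by 1.71) and the integrin Itgax (by 1.47). The others of that list were not called and went both ways: Flt3 (0.22), Clec9a (0.22), Zbtb46 (0.17), Xcr1 (-0.12), Ccr7 (-0.13) and Cd209a (-0.62). The mean of the 10 markers was 5.58 to 5.67 in line 1 tumors and 5.92 to 6.71 in the others. The median difference of the list was -0.38, against 0.03 over all genes. The part of any of these cells in the Il33 and Csf1 levels was not tested. In line 59 tumors, where 1.17% of all genes were called and 0.416% as lower, Osmr was lower by 1.61 and Cxcl1 by 0.96.

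Csf1 and its receptor varied together among tumors. Over the 12 tumors Pearson's r was 0.88 (permutation p = 0.00039, 2-sided) and Spearman's rho 0.73 (permutation p = 0.0088). Adjusted over the 2 ligand-receptor pairs computed, these were 0.00078 and 0.018. The permutations behind them moved values freely among the 12 tumors and so took tumors of a line as independent. Without line 31 tumor replicate 2 and line 59 tumor replicate 1, the tumors farthest from the median of Csf1, r was 0.70, and without line 31 tumor replicate 3 it was 0.90. Taken as deviations from the line means, r was 0.88 (exact permutation within lines, 1296 arrangements, p = 0.024, adjusted 0.048). By sign, r was above 0 in 4 of 4 lines, but each line had 3 tumors. Csf1 spanned only 7.28 to 7.35 in line 123 and 6.68 to 7.13 in line 1. It spanned 7.42 to 8.50 in line 31 and 7.24 to 8.27 in line 59. The count of signs thus does not show a common course within every line. Il34 and Csf1r gave r = -0.21 (permutation p = 0.52) and rho = -0.27 (permutation p = 0.39). These pairs were chosen after the values were seen, and the adjustment over 2 pairs does not cover that choice.

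Both genes also went with the macrophage markers. The 24-marker mean was 7.52 to 7.87 in line 1 tumors, 7.95 to 8.21 in line 123 tumors, 8.01 to 8.75 in line 59 tumors and 8.53 to 8.89 in line 31 tumors. Its correlation over the 12 tumors, given as a description of arrays that share lines, was 0.94 with Csf1, 0.78 with Csf1r, -0.71 with Il33 and 0.01 with Il1b. Without line 31 tumor replicate 3 these were 0.98, 0.90, -0.89 and -0.12. With the mean of the 11 neutrophil markers the correlations were -0.59 for Csf1, -0.62 for Csf1r, 0.82 for Il33 and 0.59 for Il1b, and without that tumor -0.62, -0.58, 0.79 and 0.50. How far the common course of Csf1 and Csf1r goes with macrophage content was not tested.

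**Figure D4:**
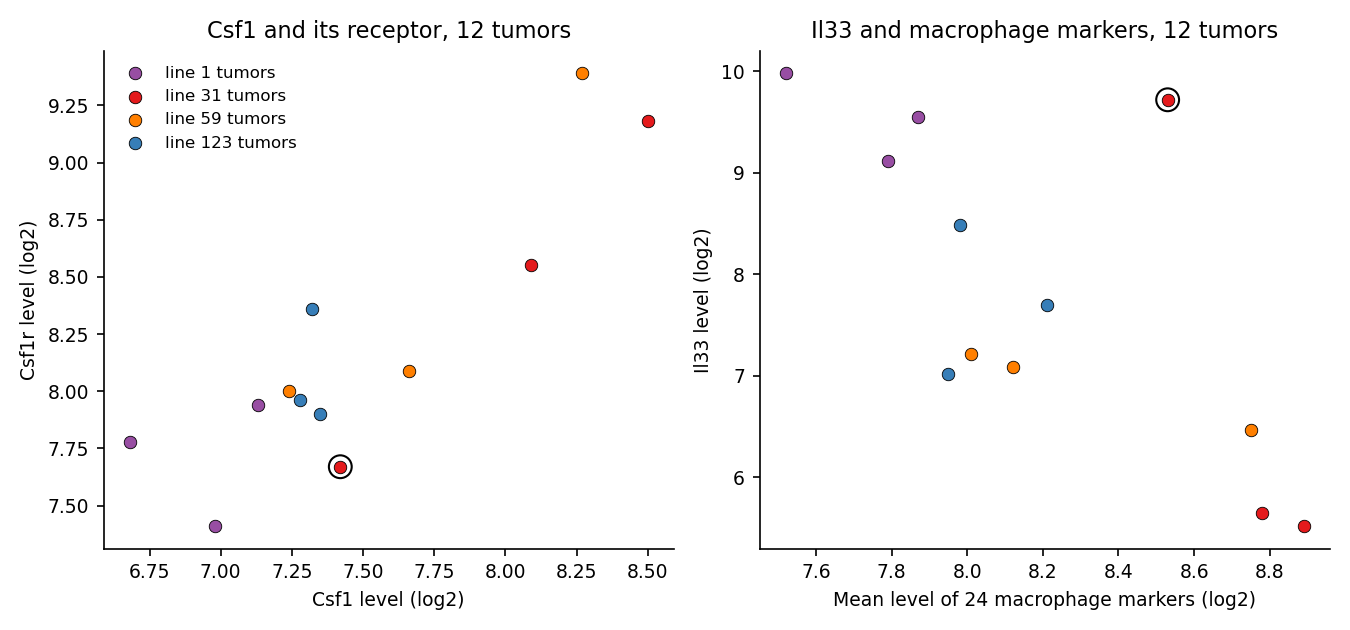
Left, Csf1r against Csf1 (deposited log2 levels) in 12 tumors; right, Il33 against the mean log2 level of 24 macrophage markers in the same tumors. Colours give the line and the ring marks line 31 tumor replicate 3, which has 9.72 for Il33 where the other line 31 tumors have 5.52 and 5.65.

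The genes whose course was most like that of a member were named by Pearson correlation, over genes above the median level. In the 12 cell arrays Csf1 was most like Osbpl3 (r = 0.98), Actn1 and Cdc42ep3 (both 0.97), Il33 like Trrap (0.95), Ifi30 and Tbc1d20 (both 0.94), and Il6 like Vsig10 (0.91), Txnl4a and Frmd6 (both 0.88). For Lif these were Shb (0.90), Rabggta (0.88) and Mcl1 (0.86), and for Il34 Gfra1 (0.87), Btc and Cx3cl1 (both 0.86). In the 12 tumors Csf1 was most like Apobec1 (0.96), Cd300c2 and the complement gene C1qb (both 0.95), and Csf1r like Pld4 (0.97), Plcg2 (0.96) and Camk1 (0.95). Il33 was most like Lratd1 (0.94), Spink2 and Ctsl (both 0.93), Il1b like Slc7a11 (0.91), Rnf149 (0.90) and Abcb1a (0.89), and Il11 like Cyfip2 (0.93), Adgrg1 (0.92) and Gramd3 (0.90). For Il6 in tumors these were Bivm (0.93), Alg13 and Immp1l (both 0.90), and for Lif Erp29 (0.87), Zbtb4 (0.84) and Ctnnbip1 (0.83). Without line 31 tumor replicate 3 the correlations of these pairs in tumors were 0.92 to 0.94 for Il33, 0.86 to 0.89 for Il6 and 0.87 to 0.90 for Il1b. Arrays of a group share its level, so these values describe group differences as well as differences within groups. They are also the highest of all genes above the median level over 12 arrays, and such maxima can be high by chance. Some of the genes hardly varied, such as Erp29 in tumors (6.14 to 6.64) and Txnl4a in cell arrays (8.38 to 8.83). Shared regulation was not tested.

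Tumors of lines 31, 59 and 123 were set beside the same lines in culture, with all these arrays quantile normalized together. This is a description with no test, since each line was 1 array in culture and the set of arrays goes with culture or tumor. Csf1r was 5.06 in line 31 in culture and 8.10 to 9.69 in its tumors, 5.12 and 8.41 to 9.69 in line 59, and 5.17 and 8.29 to 8.74 in line 123. Il1b was 5.27, 5.0 and 5.10 in the cultures of lines 31, 59 and 123, and 9.33 to 11.07, 8.55 to 10.62 and 8.39 to 9.18 in their tumors. Csf1 went the other way. It was 9.15 in line 31 in culture against 7.87 to 9.0 in its tumors, 9.39 against 7.61 to 8.59 in line 59, and 8.86 against 7.67 to 7.80 in line 123.

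Il6 was lower in each of these cultures than in the tumors of the same line, at 4.19, 4.06 and 4.91 in cultures of lines 31, 59 and 123 and 4.60 to 7.40, 5.94 to 6.73 and 5.49 to 6.27 in tumors. On the deposited arrays these cultures had Il6 at percentiles 10.6, 9.3 and 21.5 of genes, and line 31 tumor replicate 2 at 16.1. Such levels are not shown to be above background, so the size of the Il6 difference is uncertain. All 9 tumors thus lay above their own culture for Csf1r, Il1b and Il6, as for 15.7% of all genes, and below it for Csf1, as for 23.9% of all genes. With values as deposited, where the median gene of line 31 was lower in tumors by 1.53, the members above were Csf1r and Il1b, and 5 were below. In that setting 239 of 19937 genes were above and 18492 below their culture in all 9 tumors. Il33 was higher in tumors of line 59 (6.77 to 7.59 against 4.84) and line 123 (7.50 to 8.87 against 6.42), and line 31 tumors lay on both sides of their culture (5.87 to 10.04 against 6.16).

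**Figure D5:**
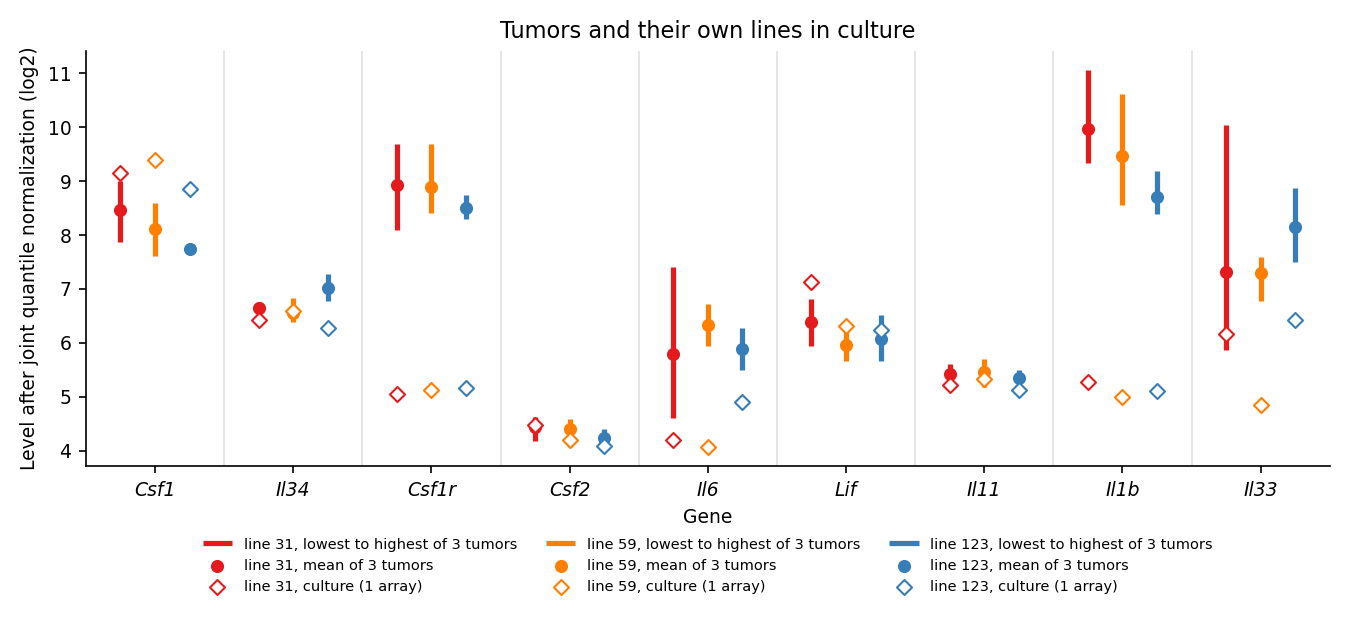
Log2 levels after joint quantile normalization (vertical axis) of the 9 measured genes in lines 31, 59 and 123; open diamonds are the culture (1 array per line), bars run from the lowest to the highest of 3 tumors and points are tumor means. Csf1r, Il1b and Il6 lie above and Csf1 below the culture in all 9 tumors.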

How the data were processed

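Total RNA was extracted with Trizol, labelled with biotin and hybridised to Affymetrix arrays, per the labels. The values are log2 levels per probe set, deposited by the authors; the submitters' processing notes name RMA, GCOS and Affymetrix Expression Console, and the genome build behind the probe annotation is not given in the sources used here. No detection calls are given in the files used, so a group mean under the 25th percentile of gene means was called low. The number of arrays limits the precision.

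Of 34760 probe sets, 21640 that name 1 gene were kept, and 1321 that name several and 11799 that name none were not. For the 954 genes with more than 1 probe set, the brightest on average stood for the gene. Tests used limma 3.58.1 under R 4.3.3 (linear model, empirical Bayes), with 2-sided p-values adjusted by Benjamini and Hochberg over 19937 genes and calls at an adjusted p under 0.05; the script was tested on simulated data. Tables were made with Python 3.11.15, pandas 2.3.3, numpy 2.4.6 and scipy 1.17.1. A ± after a difference is its SE. Promoter sequences came from RefSeq (GRCm38.p6).

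The members, gene lists, marker lists and tests were chosen with earlier results of these data known. Of each pathway list up to 4 called genes with the largest change per comparison are named, and for each member that spans at least 1 log2 unit the 3 genes most like it; Lifr, Il6ra, Cntfr in tumors, Il1rn and Sod2, the marker and tumor-line examples, the ligand-receptor pairs and the marker correlations were chosen after values were seen. Alternatives were probe set averaging, a level filter, trend and robust settings, centring, quantile normalization, left-out samples, subsets of lines, line as a random block or as means, and the replicate number as a block. Same-numbered samples did not deviate together: correlations of their deviations ran from -0.282 to 0.335 between tissue groups and were 0.079 and 0.036 between lines and NSCs, so the numbers were not taken as pairs.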

Additional observations from a re-analysis of the deposited data

Results flagged for a closer look

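Il34 in line 95 was the highest of the 6 p53 mutant lines, at a log2 level of 8.60, and its gap to the next line was 0.69 of the range of that group. The same array was the highest of the 10 lines, where its gap was 0.54 of the range. Il1b in line 123 was the highest of the 4 WT lines, at 6.25, although the 4 values lay between 6.15 and 6.25. Chance flags about 1 in 20 groups tested in this way, and the number of groups tested was 27.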

How the results depend on the processing

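The rise of Csf1 in the lines and those of Csf1r and Il1b and the fall of Csf2 and Il11 in tumors were called, in the same direction, under every alternative that tested them; the filter on genes above the median level left out Csf2 and Il11 in tumors and Csf1r and Il6 in the lines. That filter gave 1 called member between lines and NSCs, 3 called members and 7153 called genes between tumors and SubQ (82.6% of them higher, against 40.1% without it), and 1 called gene by p53 genotype; it tests fewer genes. Between lines and NSCs it gave 59.8% of calls higher against 45.3%. The mutant lines alone gave 1 called member. With values as deposited 5 members were below their culture in all 9 tumors, as were 18492 of 19937 genes.

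Leaving out 1 sample at a time gave 1402 to 3170 called genes and 1 to 3 called members between lines and NSCs (lowest without an NSC culture), 0 to 10 genes by p53 genotype, and 469 to 1659 genes and 0 to 2 members among tumor lines. For single lines it gave 329 to 1388 genes and 0 to 2 members in line 1, 47 to 562 genes and 0 to 2 members in line 31, 86 to 304 genes in line 59 and 44 to 278 genes in line 123, in each case highest without line 31 tumor replicate 3. By p53 genotype, the difference of Il34 ran from -0.07 to 0.15 and that of Il11 from -0.05 to 0.11, so their direction is not settled. The cause of these shifts was not tested.

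With the replicate number as a block, 3032 genes and 2 members were called between lines and NSCs, where Lif was 2.66 (adjusted p = 0.0086), Il6 2.08 (0.095) and Csf1r 0.24 (0.32), and where only lines 3 and 28 share a number with an NSC culture. The replicate block gave 15175 genes and 5 members between tumors and SubQ and 892 genes and 0 members among tumor lines. Group means of members under the 25th percentile of genes may lie near background: Csf2 in cultures and tumors, Il6 in SubQ, NSCs and the mutant lines, Il1b in NSCs and the mutant lines, and Csf1r and Il11 in NSCs.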
